A study of Homo sapiens with 4 samples.

Results

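NF-kappaB is a family of transcription factors, and its subunits, inhibitors and feedback targets were described here as 10 genes: the subunits NFKB1, NFKB2, REL, RELA and RELB, the inhibitors NFKBIA, NFKBIE and TNFAIP3, and the survival and adaptor genes BIRC3 and TRAF1. They are 10 of the 19970 protein-coding genes of GENCODE release 44 on chromosomes 1 to 22 and X (hg38). Each gene was given the SMC1 and CTCF peaks with a summit in its body or within 50 kb of its start, and the loops with an anchor within 5 kb of one of its transcript starts. This gave 129 of 96855 SMC1 peaks, 81 of 62869 CTCF peaks, 47 of 28012 loops in the list labelled SMC1 and 109 of 80487 loops in the list labelled CTCF. The data come from HG00731, 1 lymphoblastoid cell line (LCL, B cells immortalised with Epstein-Barr virus), in which HiChIP was performed for the cohesin subunit SMC1 after cross-linking with formaldehyde and EGS (FA-EGS HiChIP) and for CTCF after formaldehyde alone (FA HiChIP). HiChIP combines proximity ligation with immunoprecipitation, so it gives both binding peaks and chromatin loops of 1 protein. Each target had 2 replicates that were pooled into 1 peak list and 1 loop list, so no value has a replicate error, no test was made, and antibody and cross-linking cannot be told apart.

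In resting cells the NF-kappaB subunits are held back by inhibitor proteins, and a signal that destroys the inhibitors frees dimers that bind kappaB sites in DNA. Among the genes they switch on are their own inhibitors, NFKBIA and NFKBIE, and TNFAIP3, an enzyme that edits ubiquitin chains upstream in the pathway, which closes a negative feedback loop. In LCLs the viral protein LMP1 keeps the pathway active, and the cells need it to survive. Cohesin extrudes loops of chromatin until it meets CTCF, which stops it mainly when the CTCF motif points towards the loop.

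The loop lists carry a discrepancy that bears on all loop values. Loop calling in the study needed a peak of the same sample in an anchor. In the list labelled SMC1, a CTCF peak lay in an anchor of all 28012 loops, and 11 had no SMC1 peak. The other list had the reverse: all of its 80487 loops touched an SMC1 peak, and 3745 had no CTCF peak in either anchor. The loop totals stated in the study for each target are also those of the oppositely labelled lists, so the lists may have been exchanged at deposit. Which protein a loop belongs to is therefore not settled by its label, and loops are named by the label of their list, not by a protein. The lists labelled SMC1 and CTCF hold 788356 and 2666327 read pairs in all, and the depth of each replicate is unknown. The study states the reads per target with replicates pooled, and these were more for SMC1 than for CTCF. Among the loops of the 10 genes, 1 of the 109 labelled CTCF had no CTCF peak in an anchor.

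Cohesin was found at a start of every one of the 10 genes. A peak has a summit, a fold enrichment over the local background and a -log10 q, which grows with the number of reads as well as with the enrichment. An SMC1 summit lay within 1 kb of a transcript start of 10 of 10 genes, against 62.6% of all coding genes. A CTCF summit did so at 7 of 10, against 46.7%, and the 3 genes without one were REL, RELA and RELB, which encode the subunits with a transactivation domain. Both targets were thus at a start of 7 of 10 genes, against 44.2% of coding genes. The 10 genes had 3 to 24 annotated transcript starts with a median of 8.5, against a median of 5 over all coding genes, and more starts give more places for a summit to fall.

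**Figure D1:**
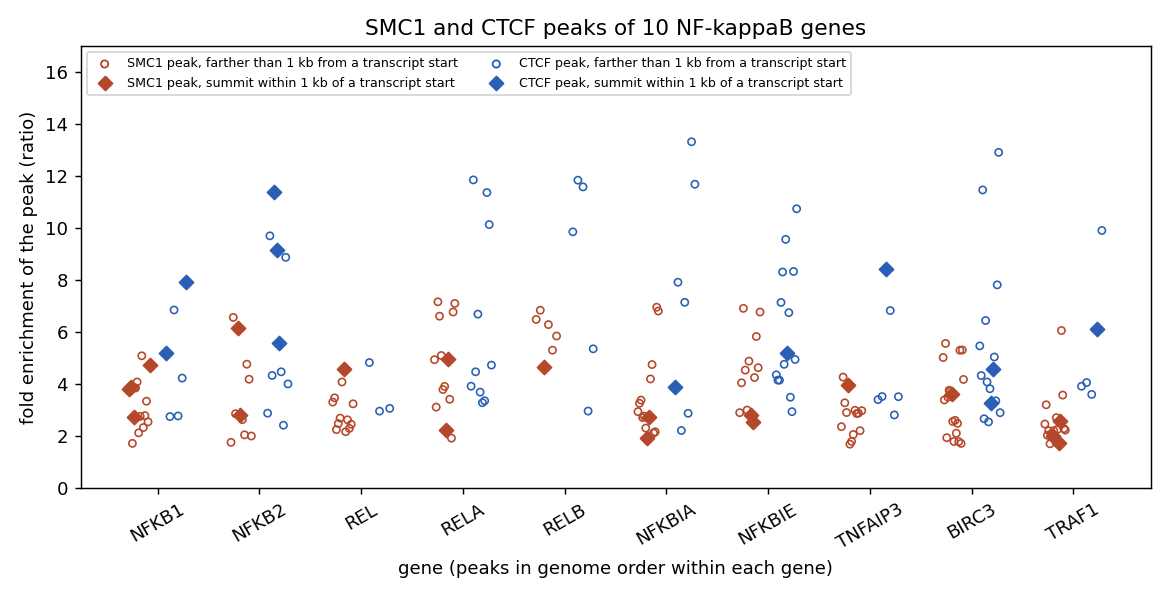
Fold enrichment of each peak (vertical axis, ratio to the local background) of the 10 genes (horizontal axis), with SMC1 in red and CTCF in blue, and diamonds for summits within 1 kb of a transcript start. REL, RELA and RELB have red diamonds only, and the highest CTCF diamond is that of NFKB2 at 11.4.

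The gene starts with the strongest CTCF binding were those of NFKB2 and TNFAIP3. At NFKB2 (chr10:102394110-102402524, forward strand), which encodes the p100 precursor of the non-canonical pathway, the CTCF summit lay 84 bp and the SMC1 summit 86 bp from the gene start, with a fold enrichment of 11.4 (-log10 q 279) for CTCF and 6.16 (-log10 q 169) for SMC1. At TNFAIP3 (chr6:137867214-137883314, forward strand) the CTCF summit, in an exon of the gene, lay 48 bp from the gene start with a fold enrichment of 8.41 (-log10 q 157), beside SMC1 at 3.96 (-log10 q 111). In both genes the start peak was also the peak with the highest -log10 q of the whole window for both targets. This was so for SMC1 in 2 genes and for CTCF in 3, the third being NFKB1, whose CTCF peak of 7.93 lay at an internal start 108899 bp into the gene. The other members with a CTCF start peak had lower values, with 6.11 at TRAF1, 5.18 at NFKBIE, 3.89 at NFKBIA, and 3.26 and 4.57 at the 2 start peaks of BIRC3. NFKB2 had a second strong CTCF peak, of 9.14, at a start within the gene, 5135 bp from the gene start. The 3 genes with no CTCF at a start were not low in SMC1 there, with 4.96 at RELA, 4.66 at RELB and 4.57 at REL, against 3.96 at TNFAIP3 and 2.74 at NFKBIA.

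Several of these promoters hold kappaB sites in the reference sequence. RefSeq promoter windows of 300 bases, from 250 before to 50 after a start (GRCh38.p14), were found for 8 of the 10 genes, and each was identical to hg38 at its coordinates. The kappaB consensus, searched on both strands, matched in 7 of 14 windows of these genes, from 6 genes, against 2065 of 34961 windows of all genes (5.91%). At least 2 matches, counted also where they overlap, were in 5 of the 14 windows, against 0.735% of all. The windows of RELA and TRAF1 held none. The matched runs were these, printed on the strand of the gene because they are where the promoters carry the family's own consensus:
NFKB1: GGGAATTTCC
REL: GGGAAATTCCC
NFKB2: GGGAATTCCCC
NFKB2: GGGGCTTTCC
NFKB2: GGGGCTTCCC
NFKB2: GGGACTTTCC
BIRC3: GGAAATCCCC
BIRC3: GGAGTTCCCC

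For NFKBIA and TNFAIP3, the members with most loops, the 250 bases before the RefSeq start are printed from 5′ to 3′ on the strand of the gene, with kappaB matches in capitals. NFKBIA lies on the reverse strand (chr14:35404750-35404999) and TNFAIP3 on the forward strand (chr6:137867009-137867258):
NFKBIA: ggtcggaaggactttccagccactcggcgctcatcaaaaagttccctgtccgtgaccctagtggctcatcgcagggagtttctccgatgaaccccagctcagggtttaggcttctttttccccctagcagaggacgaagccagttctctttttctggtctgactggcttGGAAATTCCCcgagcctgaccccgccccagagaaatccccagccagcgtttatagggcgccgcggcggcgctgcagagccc
TNFAIP3: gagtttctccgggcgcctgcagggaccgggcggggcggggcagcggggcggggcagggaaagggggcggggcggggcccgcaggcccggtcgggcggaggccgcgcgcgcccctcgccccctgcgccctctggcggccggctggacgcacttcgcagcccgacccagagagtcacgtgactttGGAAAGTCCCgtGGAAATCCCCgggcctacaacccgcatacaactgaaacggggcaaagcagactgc
The NFKBIA stretch holds 1 match and the TNFAIP3 stretch 2, with 2 bases between them. Of the 7 windows with a match, 4 had the match under an SMC1 peak (NFKBIA, TNFAIP3, BIRC3 and 1 of NFKB2) and 3 under a CTCF peak (NFKBIA, TNFAIP3 and BIRC3). The matched stretches of NFKB1 and REL lay under no peak of either list. Windows without a match also overlapped an SMC1 peak at RELA, TRAF1 and NFKB2, but not at NFKB1. The share of other genes' windows under a peak was not computed, so these counts tie no peak to kappaB sites.

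Around the starts, all 10 genes had more SMC1 peaks per 100 kb than the median coding gene. Density ran from 6 at RELB to 18 at BIRC3, against a median of 5.82 over coding genes, and 5 genes exceeded 90% of them. For CTCF it ran from 3 at REL to 15 at BIRC3, against a median of 4, with 8 genes above the median and 4 above 90% of genes. Peaks of the 10 genes were close in height to those of other genes. The median fold enrichment was 2.98 for SMC1 (95% interval 2.75 to 3.46, n = 129), against 3.30 over the windows of all coding genes, and 4.72 for CTCF (4.14 to 5.59, n = 81), against 4.95. An SMC1 peak of these genes overlapped a CTCF peak in 47.3% of cases (Wilson interval 38.9 to 55.9%), against 47.0% over all coding genes, and a CTCF peak overlapped an SMC1 peak in 80.2% (70.3 to 87.5%), against 76.3%. All these intervals cover counting error only.

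The subunit genes differed in how much CTCF their surroundings held. REL (chr2:60881491-60931612, forward), which encodes c-Rel, a subunit prominent in B cells, had 12 SMC1 but 3 CTCF peaks, and 1 SMC1 peak overlapped a CTCF peak. Its start peak, 559 bp into the gene, had an SMC1 fold enrichment of 4.57 (-log10 q 40.7). NFKB1 (chr4:102501330-102617302, forward), the gene of the p105 precursor, had 14 SMC1 peaks, of which 4 overlapped CTCF, and its top SMC1 peak of 5.08 lay in an intron 63208 bp into the gene with no CTCF peak. RELB (chr19:45001461-45038192, forward), the partner of the NFKB2 product, showed the reverse. It had 6 SMC1 and 5 CTCF peaks, and all but the SMC1 peak at its start overlapped the other target, with median fold enrichments of 6.06 and 9.85. RELA (chr11:65653599-65663090, reverse), the p65 subunit, had 13 SMC1 and 10 CTCF peaks. Its top CTCF peak (11.8, -log10 q 183) lay in an exon of the neighbouring gene PCNX3, 556 bp from a start of that gene.

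Among the inhibitors, NFKBIA (chr14:35401079-35404749, reverse) had 14 SMC1 and 7 CTCF peaks, and its strongest binding lay not at the start but upstream, with CTCF at 13.3 (-log10 q 184) 18075 bp away and SMC1 at 6.95 (-log10 q 115) 18047 bp away. NFKBIE (chr6:44258166-44265788, reverse), the gene of IkappaB-epsilon, had 12 SMC1 and 14 CTCF peaks, more CTCF peaks per 100 kb than 99.5% of coding genes. Its top CTCF peak by -log10 q (9.56, -log10 q 205) lay in an exon of SLC35B2, 48 bp from a start of that gene. TNFAIP3 had 13 SMC1 and 6 CTCF peaks, and 3 SMC1 peaks overlapped CTCF. BIRC3 (chr11:102317484-102339403, forward), which encodes the ubiquitin ligase cIAP2, had 18 SMC1 and 15 CTCF peaks, the most CTCF peaks of the 10 genes. Its top CTCF peak (12.9, -log10 q 261) lay 29518 bp downstream of the start, past the end of the gene. It was 208 bp from the nearest annotated start, listed under ENSG00000288833. Only the nearest gene was looked up for a peak, so other genes may start at the same place. TRAF1 (chr9:120902393-120929173, reverse), an adaptor of TNF receptors, had 17 SMC1 and 5 CTCF peaks, and its top peaks of both targets lay 7616 and 7617 bp upstream in an intron of C5, at 6.05 for SMC1 and 9.90 for CTCF.

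Loops were found at all 10 genes in the list labelled CTCF and at 6 of 10 in the list labelled SMC1. The shares over all coding genes were 59.0% and 35.1%. At least 3 loops labelled CTCF were at 10 of 10 genes, against 41.9%, and at least 3 labelled SMC1 at 4 of 10, against 20.2%. When only the gene start counted, and not every transcript start, 9 of 10 genes kept a loop labelled CTCF, against 50.2%, and 5 of 10 a loop labelled SMC1, against 27.9%. BIRC3 was the gene without a loop at its start in either list. The members' median was 6 loops labelled CTCF, against 1 for all coding genes, and 1.5 labelled SMC1, against 0. NFKB1, REL, RELA and NFKBIE had no loop labelled SMC1.

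**Figure D2:**
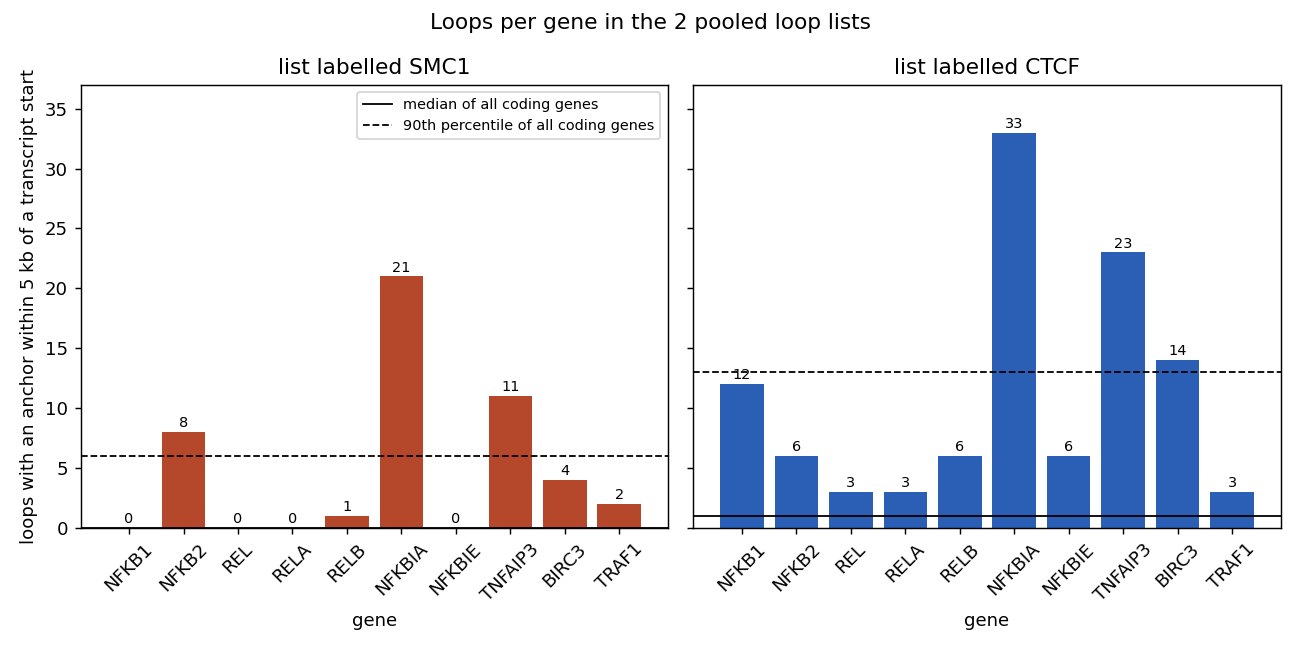
Number of loops (vertical axis) with an anchor within 5 kb of a transcript start of each gene (horizontal axis) in the list labelled SMC1 (left) and CTCF (right), with lines at the median and the 90th percentile of all coding genes. NFKBIA with 21 and 33 loops and TNFAIP3 with 11 and 23 stand above the 90th percentile, 6 and 13, in both lists.

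NFKBIA and TNFAIP3 held 56 of the 109 loops labelled CTCF and 32 of the 47 labelled SMC1. They had 64.7% and 62.1% of the read pairs behind the loops of all 10 genes. By role, the 3 inhibitors had 62 loops labelled CTCF with 2957 read pairs, the 5 subunits 30 with 703, and the 2 survival and adaptor genes 17 with 664. In the list labelled SMC1 the same groups had 32, 9 and 6 loops. Neighbouring 5 kb bins can share 1 contact, so loops of 1 gene are not independent of each other.

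All loops of NFKBIA, the gene of IkappaB-alpha, ran in 1 direction. Each of its 33 loops labelled CTCF and 21 labelled SMC1 went downstream, in the direction of transcription, and none upstream. NFKBIA had more loops than 99.1% of coding genes in the list labelled CTCF and than 98.9% in the list labelled SMC1. The loops labelled SMC1 all came from 1 bin (chr14:35405001-35410000), just upstream of the start, and fanned out to 21 bins 75 to 735 kb away. The loop with most read pairs labelled CTCF joined this bin to chr14:35285001-35290000, near PSMA6, which encodes a proteasome subunit, with 107 read pairs at 6.22 times the expected number (95% Poisson interval 5.10 to 7.51). PSMA6 was at the far anchor of 10 loops labelled CTCF with 420 read pairs in all. A second target 280 to 290 kb away, at PPP2R3C and PRORP, was reached by 4 loops labelled CTCF and 3 labelled SMC1. The loop with most read pairs labelled SMC1 ended 175 kb away at no coding start, with 31 read pairs at 7.99 times expected (5.43 to 11.3).

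TNFAIP3 looped to both sides and to no coding gene. None of its 23 loops labelled CTCF or 11 labelled SMC1 had a coding start within 5 kb of the far anchor. The gene's promoter bin (chr6:137865001-137870000) met chr6:137705001-137710000, 160 kb upstream, in 299 read pairs, the most of any loop of the 10 genes, at 7.20 times expected (6.41 to 8.07). The same loop had 55 read pairs in the list labelled SMC1, at 5.11 times expected (3.85 to 6.66). To the other side, the bin 75 kb downstream had 228 read pairs labelled CTCF (4.10 times expected, 3.59 to 4.67) and 50 labelled SMC1 (3.20, 2.37 to 4.21). Upstream loops had 662 read pairs labelled CTCF and downstream loops 1035, while in the list labelled SMC1 the upstream loops had more, 197 against 132. An SMC1 peak lay in the far anchor of 22 of the 23 loops labelled CTCF, and a CTCF peak in that of 19.

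As at RELA, RELB and TRAF1, every loop of NFKB2 had a coding start within 5 kb of its far anchor. Loops of all coding genes had coding starts near both anchors in 41.9% (labelled SMC1) and 35.5% (labelled CTCF). NFKB2 had 8 loops labelled SMC1 and 6 labelled CTCF. The strongest, to ACTR1A and MFSD13A 85 kb downstream, had 64 read pairs labelled SMC1 (3.42 times expected, 2.63 to 4.36) and 66 labelled CTCF (3.47, 2.68 to 4.41). The 2 counts lay within each other's counting intervals. They were not scaled for sequencing depth, so they do not show equal strength in the 2 lists. To the upstream side, 5 loops labelled SMC1 and 4 labelled CTCF went to ELOVL3, 160 to 175 kb away, and 2 labelled SMC1 to GBF1 and PITX3. NFKB2 was the only one of the 10 genes with more loops labelled SMC1 than CTCF.

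The loops of BIRC3 left from the end of the gene or just past it. They were counted through its last annotated transcript start, 19 kb into the gene, and came from the bins chr11:102335001-102340000 and chr11:102340001-102345000. The second bin lies past the end of the gene and also within 5 kb of a start of ENSG00000288833. Loops from that bin are therefore not particular to BIRC3. The strongest reached 155 kb downstream with 127 read pairs labelled CTCF (7.50 times expected, 6.25 to 8.92) and 48 labelled SMC1 (6.93, 5.11 to 9.19). Loops to MMP20, a matrix metalloproteinase gene, spanned 260 to 275 kb in the list labelled CTCF, with up to 72 read pairs. A set of 5 loops labelled CTCF ran back over the gene to upstream bins with 202 read pairs and had none in the other list. TRAF1 had 3 loops labelled CTCF of 32 to 35 read pairs and 2 labelled SMC1 of 14 and 17, and all of them ended at PHF19.

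**Figure D3:**
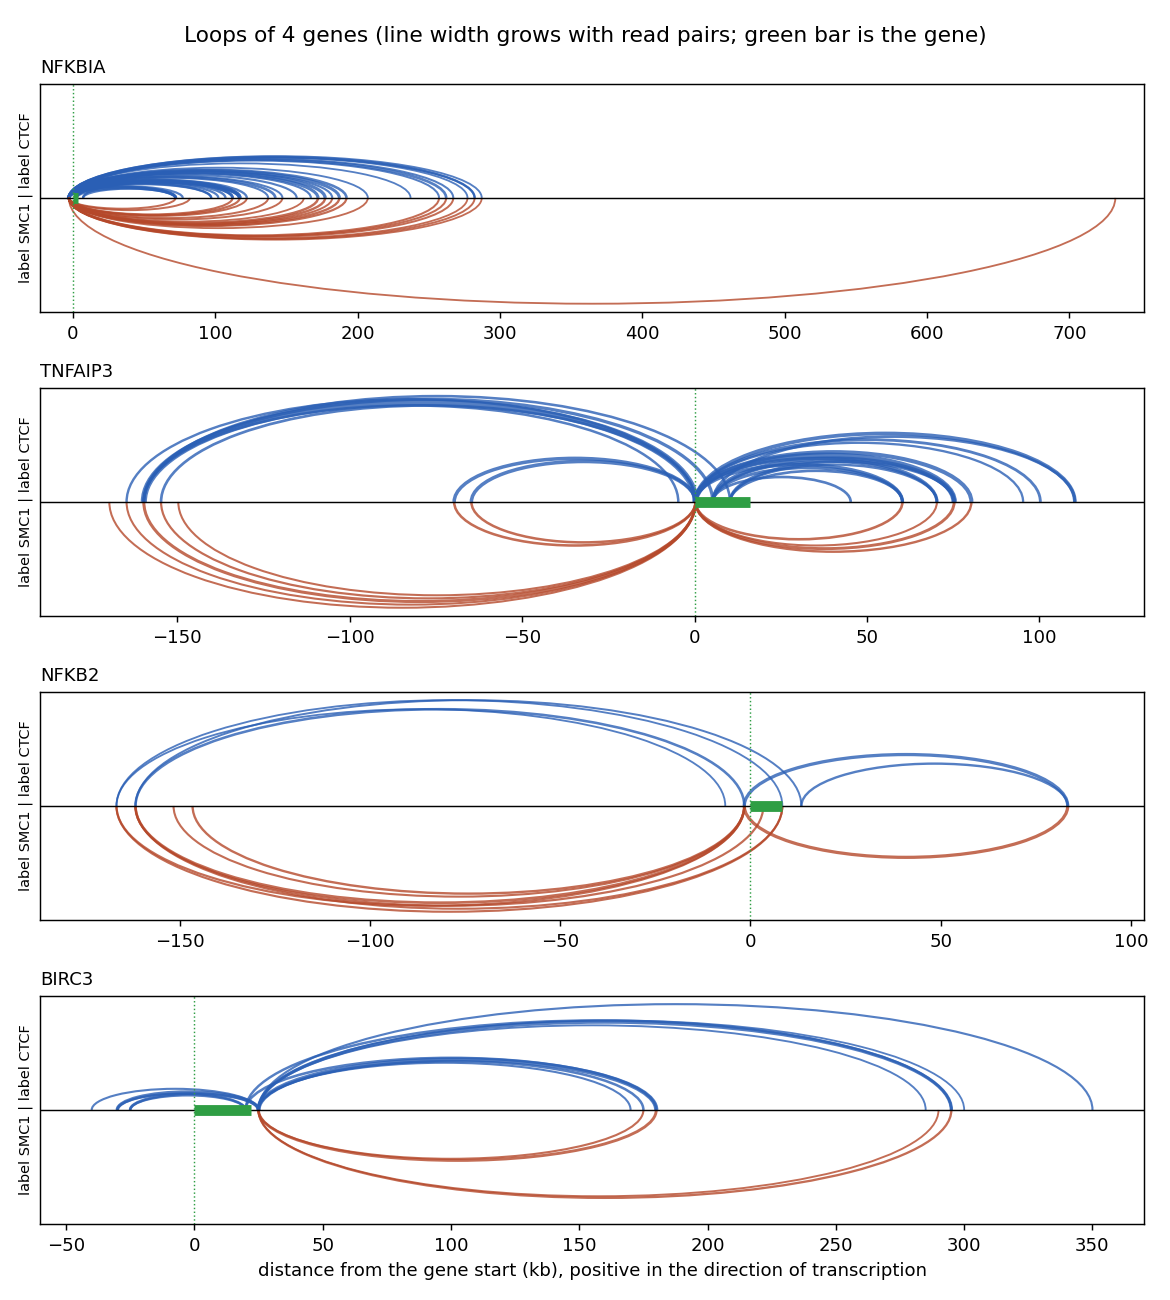
Loops of NFKBIA, TNFAIP3, NFKB2 and BIRC3 by distance from the gene start (horizontal axis, kb, positive in the direction of transcription), with the list labelled CTCF above the line in blue, the list labelled SMC1 below in red, and width growing with read pairs. All arcs of NFKBIA run downstream, TNFAIP3 has arcs to both sides, and the arcs of BIRC3 leave from the end of the gene or just past it.

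The remaining subunits and NFKBIE had 3 to 12 loops labelled CTCF, and of them only RELB had a loop labelled SMC1. NFKB1 had 12 loops labelled CTCF with 219 read pairs, of which 6 joined its start to bins in the later part of its own body, 80 to 115 kb away, at 2.26 to 2.89 times expected. Its strongest loop left from the end of the gene to a bin 390 kb away with 29 read pairs (7.07 times expected, 4.73 to 10.1), and the longest, of 475 kb, reached BDH2 and SLC9B2. REL had 3 loops of 16 to 18 read pairs, all from different bins to the same bin upstream. RELA had 3 loops of 17 to 30 read pairs to PCNX3, 1 of them shared with MAP3K11, a kinase gene. RELB had 6 loops labelled CTCF downstream, 4 of them to CLASRP with up to 64 read pairs. Only 2 of the 6 had an anchor within 5 kb of its gene start, and the loop with 64 left from chr19:45015001-45020000, inside the gene. RELB also had 1 loop labelled SMC1 of 10 kb to CLPTM1 with 58 read pairs. The loops of NFKBIE, 6 labelled CTCF, all ran upstream, with up to 39 read pairs to SPATS1.

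Most CTCF motifs at these anchors pointed into the loops. A matrix of 19 positions was learned from the 3000 CTCF summits with the highest -log10 q (17.7 bits, consensus NNGCCACCAGGGGGCGCNN), and a match needed 11.7 bits, the 99th percentile of control windows. Within 100 bp of the summit, 12 of the 81 CTCF peaks (14.8%) had a match, against 19.3% of all CTCF peaks. Over the whole peak, a scan chosen after the first result was seen, 31 of 81 (38.3%) had one, against 37.7% of all CTCF peaks and 3.03% of stretches of the same length 2000 bp away, and 9 of the 10 genes had a match, REL being the exception. Peaks of these genes with a match at the summit had a median fold enrichment of 9.63 (n = 12), and those without one 4.35 (n = 69). Over all CTCF peaks the values were 8.41 and 4.43. The matrix was learned from the top peaks of this same list, so this split was partly set in advance and is no separate result.

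Of the 13 matches in the strongest loops labelled CTCF, 9 are printed, those of the 4 loops with a match at both anchors and that of NFKBIA, the gene with most loops. They are given from 5′ to 3′ on the strand of the motif, with matrix positions 3 to 17 in capitals, and their strands set the direction in which each faces. The near one lies in the anchor counted to the gene, which for BIRC3 is past its end, and the far one in the other anchor:
TNFAIP3 near, reverse strand: cgGCCGCCAGAGGGCGCag
TNFAIP3 far, forward strand: ttACCAATAGATGGCAGca
NFKB2 near, forward strand: agGCCGCCAGAGGGCGCcc
NFKB2 far, reverse strand: caTCCTCTAGAGGGCATca
BIRC3 near, forward strand: tgACCACAAGGTGGCAGta
BIRC3 far, reverse strand: tcGCCACATGAGGGCACcc
RELB near, forward strand: ttTCCCCTAGGGGGCAGca
RELB far, reverse strand: tcTCCACTAGAGGGCGCtg
NFKBIA near, reverse strand: ttACCACTAGGTGTCACac
These lie at chr6:137867129-137867147 and chr6:137708031-137708049 for TNFAIP3, chr10:102394067-102394085 and chr10:102479122-102479140 for NFKB2, chr11:102341929-102341947 and chr11:102495587-102495605 for BIRC3, chr19:45017095-45017113 and chr19:45059643-45059661 for RELB, and chr14:35407101-35407119 for NFKBIA. In TNFAIP3 the CTCF match lies in the promoter, 44 bases before the first kappaB match of the sequence printed above.

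With whole peaks scanned, the strongest loop labelled CTCF of each of the 10 genes gave 13 anchor matches, and 13 of 13 faced the other anchor. In 4 of these loops both anchors had a match, those of TNFAIP3, NFKB2, BIRC3 and RELB, and all 4 pairs were convergent. Over all loops of the 10 genes labelled CTCF, 11 had a match at both anchors, of which 8 were convergent and 3 tandem (72.7% convergent, against 70.9% over the whole list). In the list labelled SMC1, 6 of 8 were convergent and 2 tandem, against 70.0% convergent over the whole list. Counted by anchor, 82 of 93 matches in loops labelled CTCF faced the other anchor (88.2%), against 87.6% over the whole list, and in the list labelled SMC1 45 of 53 did (84.9%), against 84.5%. An anchor shared by several loops was counted each time, so these are not separate sites. The near anchors of NFKBIA alone gave 26 of the 93 matches and 21 of the 53, all facing the far anchor. Every far match faced the gene, 32 of 32 labelled CTCF and 9 of 9 labelled SMC1, with anchors shared by several loops counted each time (17 and 8 distinct motifs). The near matches that faced away were at TNFAIP3, NFKB2 and BIRC3. At NFKBIA the near match faced downstream, the side to which all its loops ran, and all 3 matches in its CTCF peaks lay on the reverse strand. At TNFAIP3 the promoter match faced the upstream anchor with 299 read pairs and turned its back on the downstream anchor with 228, where the far match faced the gene.

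Read pairs over the expected number were close to those of other genes in the list labelled SMC1 and lower in the list labelled CTCF. The median of observed over expected read pairs was 3.96 (3.42 to 5.38, n = 47) in the list labelled SMC1, against 3.85 over loops of all coding genes, and 3.16 (2.99 to 3.49, n = 109) in the list labelled CTCF, against 3.87, which lies above the interval (counting error only, with loops of shared anchors taken as independent). A loop labelled SMC1 had a counterpart in the other list, within 15 kb at each anchor, in 46 of 47 cases (97.9%, Wilson interval 88.9 to 99.6%), against 91.5% of loops of all coding genes. The exception was the loop of RELB to CLPTM1. A loop labelled CTCF had one in 71 of 109 cases (65.1%, 55.8 to 73.4%), against 56.1%. CTCF peaks were in both anchors of 36.7% of loops labelled CTCF (28.2 to 46.1%), against 48.1%, and of 53.2% of those labelled SMC1 (39.2 to 66.7%), against 58.7%. Coding starts were within 5 kb of both anchors in 43.1% (34.2 to 52.5%) and 40.4% (27.6 to 54.7%), against 35.5% and 41.9%.

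**Figure D4:**
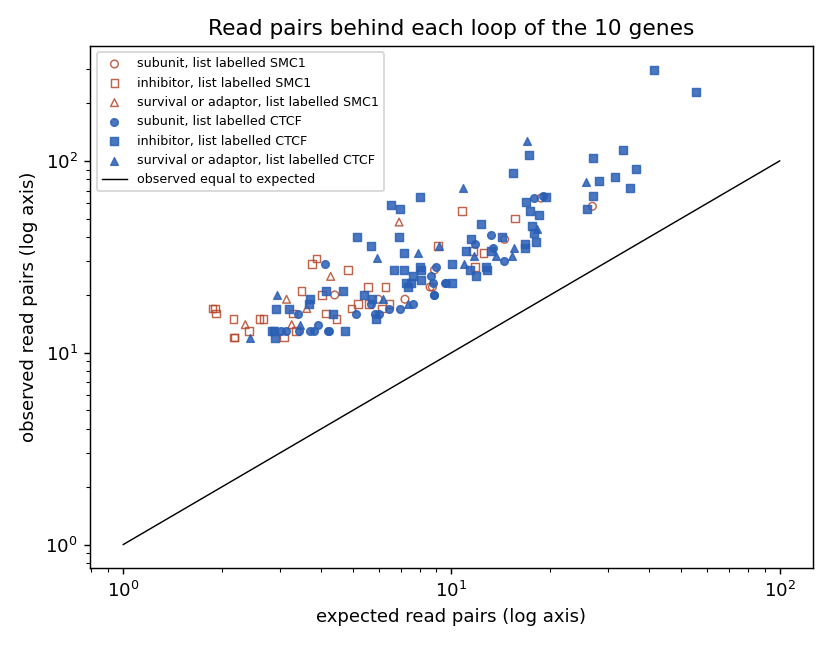
Observed read pairs (vertical log axis) against the expected number (horizontal log axis) for each loop of the 10 genes, with filled blue symbols for the list labelled CTCF, open red symbols for the list labelled SMC1, shapes for the role of the gene, and a line where observed equals expected. The highest points are the loops of TNFAIP3 with 299 and 228 read pairs.

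Most other genes of the pathway had loops as well. Of 30 genes for receptors' adaptors, kinases, ubiquitin enzymes and further inhibitors, 29 had an SMC1 summit within 1 kb of a start, against 62.6% of all coding genes, and 23 a CTCF summit, against 46.7%. Loops labelled SMC1 were at 24 of them with a median of 3, against 35.1% of all coding genes, and loops labelled CTCF at 25 with a median of 5.5, against 59.0%. Most loops labelled CTCF were at CYLD, a deubiquitinase that restrains the pathway, with 40 (38 labelled SMC1), followed by IKBKB, which encodes a catalytic IkappaB kinase, with 23 and TNIP2, a partner of TNFAIP3, with 21. In the list labelled SMC1, CYLD was followed by TNIP1 with 15, and by BIRC2 and TNIP2 with 13 each. Loops were counted gene by gene, so a loop near starts of several genes counts for each of them. Some loops here can therefore be loops already counted for the 10 genes. The genes with none labelled CTCF were MAP3K7, TBK1, IKBKE, OTULIN and NFKBIB, and those with none labelled SMC1 were MAP3K7, TAB2, TAB3, TBK1, TANK and OTULIN. Of 12 further targets in B cells, 10 had an SMC1 summit at a start, 7 a loop labelled SMC1 and 10 a loop labelled CTCF, led by the adhesion gene ICAM1 with 17 and 27 loops. In the lists used here, no peak or loop fell to IER3.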

How the data were processed

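HiChIP of HG00731 cells was measured in 2 samples for SMC1 and 2 for CTCF. Reads were mapped by the authors to the hg38 genome (BWA-MEM 0.7.17), and duplicates and poorly mapped reads were removed. Peaks came from MACS3 3.0.1, with a q-value limit of 0.01 and the local background of the sample in place of an input. The deposited peak lists hold a fold enrichment, which is a ratio to that background, and -log10 q-values. The deposited loop lists were called with MAPS in bins of 5 kb, and hold counts of read pairs and the expected number from the model of the authors. Each list has at least 12 read pairs a loop and spans of up to 1000 kb. Replicates were pooled per target before deposit, so the spread between replicates and the depth of each are unknown. Enrichment and read pairs depend on depth, antibody and cross-linking, which differ between the targets.

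Genes and transcript starts came from GENCODE release 44. The members and lists were chosen with earlier results of these data known. All 10 genes were named, with the peak of highest -log10 q, the peak nearest to a start within 1 kb, and the loops with most read pairs and longest span. Other loops of a gene, far anchors and peaks were named after their values were seen. Of the other pathway genes, the 3 with most loops and those with none were named. Peaks were shared where they overlapped by at least 1 bp, and loops were matched within 15 kb at each anchor. Shares have Wilson 95% intervals, medians rank intervals and read pairs exact Poisson intervals, which cover counting error only. The background is all 19970 coding genes treated alike. A CTCF matrix was learned from the 3000 summits of highest -log10 q. The kappaB consensus was searched in promoter sequences of RefSeq (GRCh38.p14), in which 8 of 10 genes were found, not NFKBIE and RELB. Scripts were tested on simulated data. The software was pandas 2.3.3, pysam 0.24.0, SciPy 1.17.1, NumPy 2.4.6 and Matplotlib 3.10.9 under Python 3.11.15. Alternatives were stricter q-values, other windows, anchor rules and read pair minimums, exchanged loop lists, and whole-peak motif scans.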

Additional observations from a re-analysis of the deposited data

How the results depend on the processing

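Of 64 values recomputed under other settings, 42 stayed within the counting interval or within 1.5 times the count, and 22 did not. With peaks of at least 10 in -log10 q, the SMC1 peaks of the 10 genes numbered 84, and the median fold enrichment was 3.93 for SMC1 and 6.68 for CTCF. Windows of 25 kb gave 82 SMC1 and 46 CTCF peaks, and windows of 100 kb gave 213 and 135. With a transcript start required inside the anchor, the list labelled SMC1 gave 19 loops with a median of 3.17 over expected and 100% matched, and the list labelled CTCF gave 51 loops with 2.73 and 54.9%. At least 20 read pairs left 22 loops labelled SMC1. With the loop lists exchanged, the reading under which the list sizes are those the study states for each target, SMC1 would have the 109 loops, the median of 3.16 and the 65.1% matched, and CTCF the 47 loops, 3.96 and 97.9%. Matching with no tolerance gave 70.2% of loops labelled SMC1 and 30.3% of those labelled CTCF. Scanning whole peaks for the CTCF matrix, chosen after the data were seen, raised CTCF peaks with a match from 12 to 31, and loops with a match at both anchors from 4 to 8 labelled SMC1 and from 3 to 11 labelled CTCF. The number of genes with a start peak was again 10 for SMC1 and 7 for CTCF when a wider distance was allowed and when only the gene start counted.

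No paired analysis was possible because the pooled lists hold no value for a single replicate, and leaving out a replicate was not possible for the same reason. Peaks or loops under the calling thresholds cannot be seen, so a gene with no loop in a list has none that passed at this depth.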
